A study of Mus musculus with 30 samples.

Results

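Polycomb proteins were described here through 10 genes, *Ezh2*, *Eed*, *Suz12*, *Jarid2*, *Mtf2*, *Rnf2*, *Ring1*, *Pcgf6*, *Kdm2b* and *Cbx7*, measured by bulk RNA-seq in mouse embryonic stem cells (mESCs). They were chosen by name: each symbol was looked up in the GENCODE M21 annotation (GRCm38), and its identifier was found in the count table. All 10 were among the 55421 genes of the table, and all 10 were among the 11703 expressed genes, which had a mean above 5 TPM (counts scaled for transcript length and library size) in the XX *Rnf12*+/- libraries. None lies on the X chromosome, so that the deletions studied here removed no copy of them.

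Polycomb proteins keep developmental genes silent through a pair of chromatin-modifying complexes. Polycomb repressive complex 2 (PRC2) methylates histone H3 at lysine 27, and polycomb repressive complex 1 (PRC1) adds ubiquitin to histone H2A. Each complex can bind the mark made by the other, and in female cells both marks spread over the X chromosome that becomes inactive.

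All 10 are protein-coding genes, given here with their span in GRCm38. The PRC2 core genes were *Ezh2* (ENSMUSG00000029687, chr6:47530139-47595341), *Eed* (ENSMUSG00000030619, chr7:89954654-89980983) and *Suz12* (ENSMUSG00000017548, chr11:79993106-80034123). The PRC2 cofactors were *Jarid2* (ENSMUSG00000038518, chr13:44729474-44921643) and *Mtf2* (ENSMUSG00000029267, chr5:108065674-108109004). The catalytic PRC1 genes were *Rnf2* (ENSMUSG00000026484, chr1:151458004-151500955) and *Ring1* (ENSMUSG00000024325, chr17:34020792-34024680). *Pcgf6* and *Kdm2b* belong to variant PRC1 and *Cbx7* to canonical PRC1: *Pcgf6* (ENSMUSG00000025050, chr19:47033617-47050906), *Kdm2b* (ENSMUSG00000029475, chr5:122870665-122989823) and *Cbx7* (ENSMUSG00000053411, chr15:79915807-79971119).

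The 30 libraries came from F1 hybrid mESCs with 1 129/Sv genome (*Mus*) and 1 Cast/Ei genome (*Cast*), and cover 17 conditions. XX wild type cells and XX *Rnf12*+/- cells, in which *Rnf12* is deleted on 1 X chromosome, had 2 libraries each. The XO clones XCastO129 (with the *Cast* X only) and X129OCast (with the *Mus* X only, on which *Rnf12* is deleted) had 2 libraries each. The 13 deletion lines lack a segment of the *Mus* X chromosome on the *Rnf12*+/- background and retain a neomycin cassette. Lines A, B, AB and C-G were 1 clone each, and C, D, E, F, H, I, I-TEL, J and K were 2 clones each. I-TEL and J were made from a second *Rnf12*+/- line and the other deletions from the first. All cells were grown on irradiated mouse embryonic fibroblasts, which were reduced by pre-plating before RNA was taken.

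The library names fall into 3 sets that largely follow the conditions. The first set held deletion E and both kinds of XX cell without a deleted segment (6 libraries, 20375194 to 21181405 counts each). The second held the other 12 deletion lines (20 libraries, 8816184 to 10680026 counts), and the third the XO clones (4 libraries, 14998265 to 16494893 counts, sequenced as single reads and not as pairs). Outside deletion E and XX wild type, a difference from XX *Rnf12*+/- and a difference between library sets cannot be told apart. All 8 stem cell markers were detected in every library, with a summed level of 5795 to 7972 TPM. All 12 fibroblast markers were detected as well, at 97.0 to 441 TPM in sum, and this sum differed between libraries of 1 condition (426 and 135 TPM in XX *Rnf12*+/-). In bulk RNA, fewer cells of a type and less RNA per cell cannot be told apart.

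The promoters of *Mtf2*, *Suz12*, *Rnf2* and *Jarid2* are shown. These genes were called in both XO genotypes, 3 of them lower and *Jarid2* higher, and no annotated exon overlaps the windows. *Kdm2b* was also called in both XO genotypes and has a window without exon overlap, which is not shown. Each is the 250 bases before the RefSeq start (GRCm38.p6), read 5′ to 3′ on the strand of the gene, with every CG dinucleotide in capitals.
Mtf2: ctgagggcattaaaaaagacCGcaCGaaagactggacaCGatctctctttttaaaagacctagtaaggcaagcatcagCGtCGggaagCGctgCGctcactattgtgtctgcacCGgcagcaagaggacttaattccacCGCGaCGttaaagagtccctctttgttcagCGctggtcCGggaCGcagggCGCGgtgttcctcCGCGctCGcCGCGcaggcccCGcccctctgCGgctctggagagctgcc
Suz12: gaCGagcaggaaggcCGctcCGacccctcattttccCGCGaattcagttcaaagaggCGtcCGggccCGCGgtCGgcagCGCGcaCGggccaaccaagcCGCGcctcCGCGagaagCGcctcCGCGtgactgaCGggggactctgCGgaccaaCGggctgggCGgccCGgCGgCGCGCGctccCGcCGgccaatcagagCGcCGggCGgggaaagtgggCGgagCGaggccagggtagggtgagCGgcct
Rnf2: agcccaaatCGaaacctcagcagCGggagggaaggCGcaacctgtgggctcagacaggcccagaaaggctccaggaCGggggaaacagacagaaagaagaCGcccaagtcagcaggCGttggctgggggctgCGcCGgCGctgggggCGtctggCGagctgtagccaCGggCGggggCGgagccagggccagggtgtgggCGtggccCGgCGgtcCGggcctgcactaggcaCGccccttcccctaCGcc
Jarid2: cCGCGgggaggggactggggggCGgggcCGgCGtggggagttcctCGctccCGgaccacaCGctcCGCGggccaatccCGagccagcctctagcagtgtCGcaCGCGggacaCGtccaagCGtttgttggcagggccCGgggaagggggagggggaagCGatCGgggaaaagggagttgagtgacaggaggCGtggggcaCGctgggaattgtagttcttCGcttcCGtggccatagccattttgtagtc
The *Mtf2* sequence is chr5:108065424-108065673 (plus strand), that of *Suz12* chr11:79992856-79993105 (plus), that of *Rnf2* chr1:151500992-151501241 (minus) and that of *Jarid2* chr13:44730524-44730773 (plus). The window of *Jarid2* lies inside the annotated gene (GENCODE M21). They hold 23, 37, 20 and 23 CG dinucleotides, against a median of 6 over the 32851 promoters of the same table. Unmethylated CG-rich DNA is what KDM2B and MTF2 are known to bind. All 10 genes had at least 1 listed promoter above that median, and the 15 promoters listed for them ranged from 2 CG at a second, internal start of *Mtf2* to 38 at a start of *Kdm2b*. The letters CCAAT, on either strand, stood in 7 of these 15 promoters and in 33.9% of all promoters. The 7 belong to *Cbx7*, *Ezh2*, *Jarid2*, *Kdm2b*, *Mtf2* and *Suz12*, and overlapping windows of *Kdm2b* that share a site are counted separately. TTTCCCGC, a form of the E2F motif, stood in 1 of the 15 (*Suz12*) and in 0.895% of all promoters, and the NRF1 motif in 2 of the 15 (*Ezh2* and *Pcgf6*) and in 3.74%. TTTGGCGC (another E2F form), ATGGCGGC (YY1) and CCGGAAG (ETS) stood in none of the 15, and in 0.417%, 1.03% and 6.91% of all promoters. These are matches of letters, and binding was not measured.

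Per transcript length and by median over the 30 libraries, *Jarid2*, *Suz12*, *Eed* and *Mtf2*, all of PRC2 or its cofactors, were the most abundant of the 10. Within single libraries *Cbx7* stood at rank 2 to 5. In X129OCast its mean of 164 TPM was above those of *Eed*, *Suz12* and *Mtf2* (143, 138 and 103 TPM). *Ezh2* stood below *Cbx7* in all 30 libraries. By median over the 30 libraries the order was *Jarid2* (235 TPM), *Suz12* (232 TPM), *Eed* (182 TPM), *Mtf2* (161 TPM), *Cbx7* (134 TPM), *Ezh2* (107 TPM), *Rnf2* (62.0 TPM), *Pcgf6* (54.7 TPM), *Kdm2b* (46.2 TPM) and *Ring1* (11.4 TPM). *Ring1* was the lowest in all 30 libraries, and only *Kdm2b* and *Ring1* were neighbours in this order whose ranges did not overlap. *Jarid2* was above *Suz12* in 13 of 30 libraries, so the top of the order differed from line to line. *Rnf2* and *Ring1* encode the alternative catalytic subunits of PRC1, and *Rnf2* was above *Ring1* in every library.

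**Figure D1:**
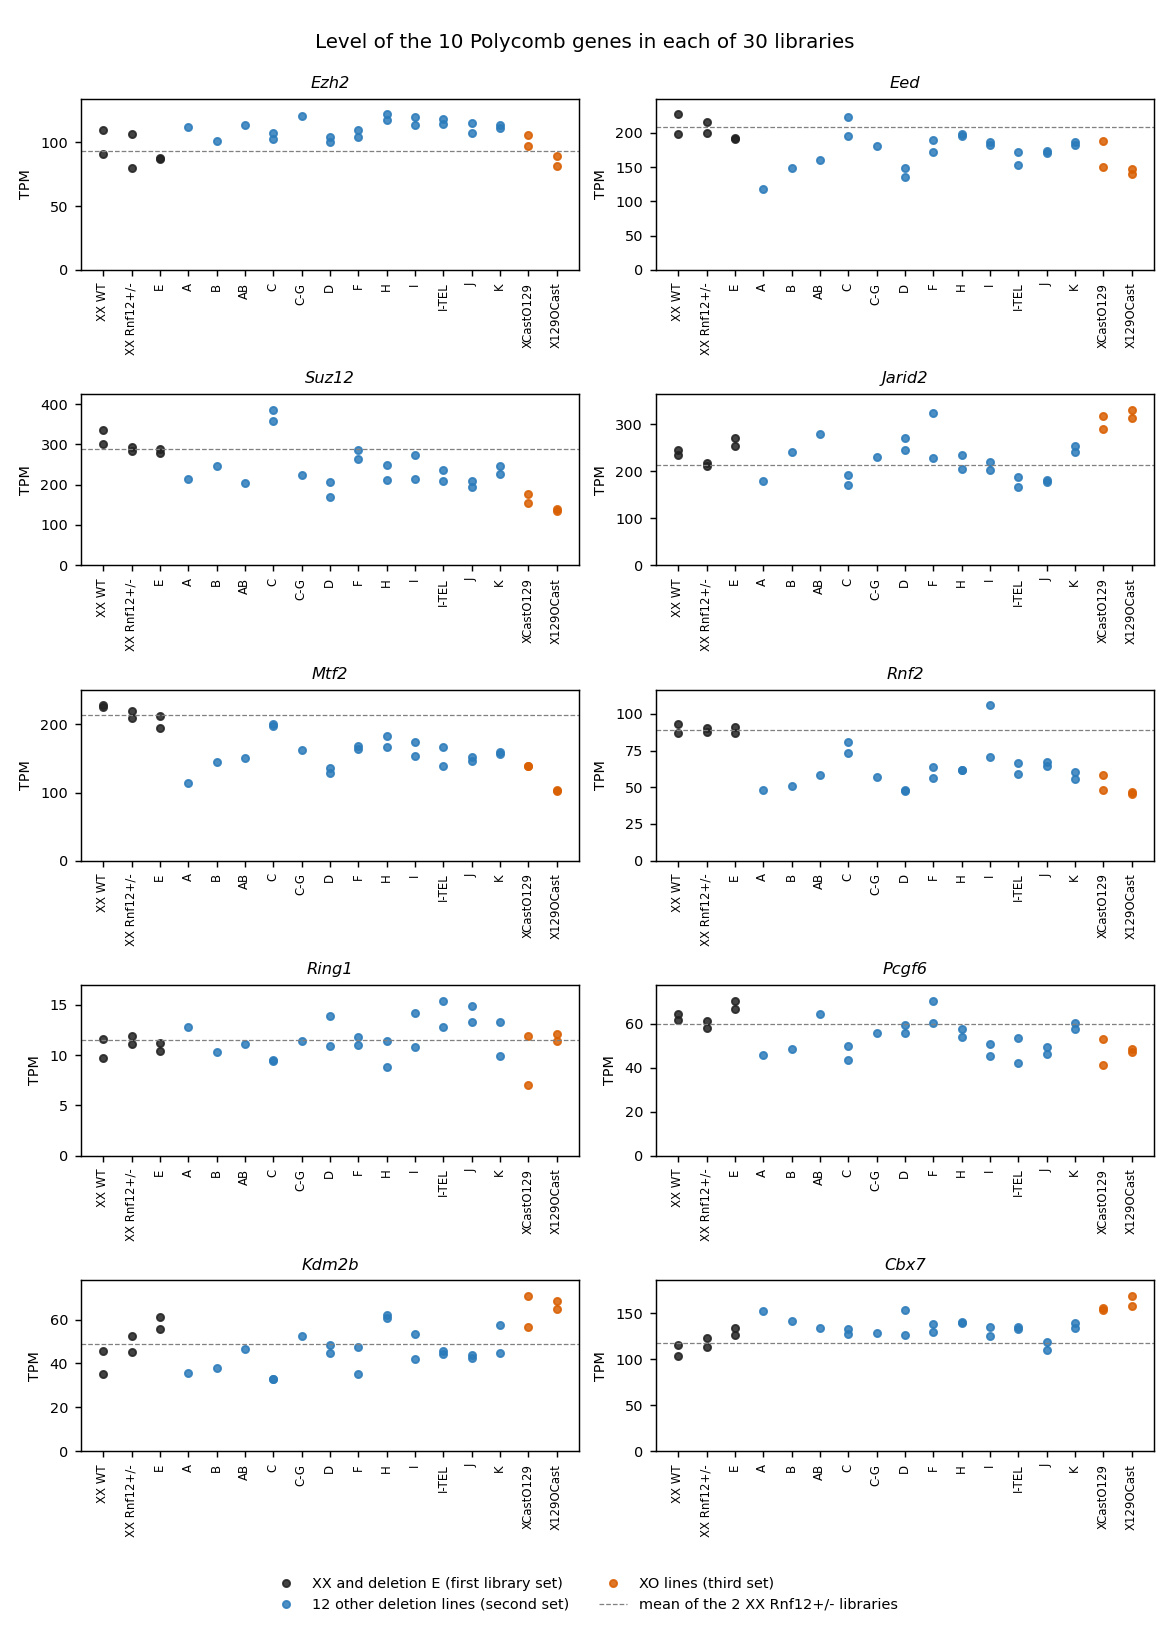
Level of each of the 10 genes (y axis, TPM from 0) in each library (points), by condition (x axis), coloured by library set, with the mean of the 2 XX *Rnf12*+/- libraries as a dashed line. *Mtf2* was lower in all 20 libraries of the 12 deletion lines and in all 4 XO libraries than in the 4 XX libraries, while *Ring1* varied between 7.05 and 15.4 TPM with no such separation. The share of all genes with such a separation was not counted.

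Deletion of 1 *Rnf12* copy was compared with the wild type first, within 1 library set. None of the 10 genes passed the test (edgeR quasi-likelihood, Benjamini-Hochberg adjusted p under 0.05) and none had an unadjusted p under 0.05, also with DESeq2. Of all expressed genes, 0.00854% were called in this comparison. The largest of the 10 estimates was that of *Kdm2b*, which recognises unmethylated CG-rich DNA and brings a variant PRC1 to it. It had 45.9 and 35.1 TPM in XX wild type and 52.4 and 45.0 TPM in XX *Rnf12*+/- cells, and the ranges overlap. The log2 fold change of wild type over *Rnf12*+/- was -0.28 ± 0.16 (SE, n = 2 and 2, edgeR adjusted p = 0.762). A fit with the replicate number as a block, described in the section on processing below, called *Kdm2b* and 10.0% of all genes. Deletion E, which shares a library set with XX *Rnf12*+/-, also had none of the 10 genes called and none with an unadjusted p under 0.05, in edgeR and in DESeq2 (0.273% of all genes were called by edgeR). Its estimates for the 10 genes ran from -0.14 (*Eed*) to 0.27 (*Jarid2*) on the log2 scale.

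In the XO clones, 3 core or accessory genes were lower and 3 others higher than in XX *Rnf12*+/- cells, in both XO genotypes. In XCastO129, 6 of 10 genes were called, 3 lower (*Suz12*, *Mtf2*, *Rnf2*) and 3 higher (*Jarid2*, *Kdm2b*, *Cbx7*), where 41.4% of all expressed genes were called (20.4% lower and 21.0% higher). In X129OCast, 7 of 10 were called, the same 6 in the same directions and *Eed* as a lower one, where 53.5% of all genes were called (27.5% lower and 26.0% higher). The median log2 fold change of the 10 genes was -0.17 in XCastO129 and -0.07 in X129OCast, against -0.01 and -0.03 for all expressed genes. Both comparisons share the *Rnf12*+/- libraries and differ from them in library set and read type, and genotype and library set cannot be told apart here. How many of all expressed genes separate XO from XX libraries without overlap was not counted, which limits the non-overlaps given below.

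Among the PRC2 genes, *Suz12*, the subunit that holds the complex together and binds its cofactors, differed most in level. It had 283 and 292 TPM in XX *Rnf12*+/-, 335 and 302 TPM in XX wild type, 176 and 154 TPM in XCastO129, and 140.3 and 136 TPM in X129OCast. All 4 XO values lie below all 4 XX values. The log2 fold changes against *Rnf12*+/- were -0.68 ± 0.11 (XCastO129, edgeR adjusted p = 6.46e-05) and -0.91 ± 0.11 (X129OCast, edgeR adjusted p = 1.73e-06; SE, n = 2 and 2 in each). *Eed*, whose protein reads H3K27 methylation and activates the enzyme, had 217 and 199.8 TPM in *Rnf12*+/-, 188 and 150.3 TPM in XCastO129 and 140.1 and 147 TPM in X129OCast. Its change passed the test in X129OCast only (-0.38 ± 0.11, edgeR adjusted p = 0.00546; XCastO129, -0.18 ± 0.11, adjusted p = 0.188), and the direct comparison of the XO genotypes gave -0.20 ± 0.11 (adjusted p = 0.247). The 17 other expressed genes within 5 Mb of *Eed* had a median log2 fold change of -0.44 in X129OCast, with 8 of them called lower and 3 higher. *Ezh2*, the methyltransferase itself, had 80.2 and 106 TPM in *Rnf12*+/-, 97.2 and 106 TPM in XCastO129 and 88.9 and 81.4 TPM in X129OCast. The XO values lie inside the range of the XX values, and neither change passed the test.

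Of the PRC2 cofactors, *Mtf2* was lower and *Jarid2* higher. *Mtf2* encodes a Polycomb-like protein that helps PRC2 bind CG-rich DNA. It had 209 and 219 TPM in XX *Rnf12*+/-, 139 and 138 TPM in XCastO129, and 102 and 104 TPM in X129OCast. The 3 genotypes do not overlap, and X129OCast is the lowest. Against *Rnf12*+/- the log2 fold changes were -0.51 ± 0.08 and -0.90 ± 0.08 (edgeR adjusted p = 5.97e-05 and 5.96e-08). *Mtf2* was also the only 1 of the 10 that differed between the XO genotypes, by -0.39 ± 0.08 in X129OCast over XCastO129 (edgeR adjusted p = 0.00524), a comparison within 1 library set in which 9.03% of all genes were called. Without X129OCast replicate 1 the estimate was -0.37 and the adjusted p 0.0609, and in a fit of the 4 XO libraries alone the adjusted p was 0.102. *Jarid2*, which links PRC2 to ubiquitinated H2A, had 218 and 210.4 TPM in *Rnf12*+/-, 317.5 and 290.4 TPM in XCastO129 and 314 and 331 TPM in X129OCast. All XO values lie above all XX values. The log2 fold changes were 0.63 ± 0.13 and 0.75 ± 0.13 (edgeR adjusted p = 0.00097 and 0.000125).

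Among the PRC1 genes, the catalytic *Rnf2* was lower, while *Kdm2b* and *Cbx7* were higher. *Rnf2* had 90.5 and 87.5 TPM in XX *Rnf12*+/-, 58.4 and 48.0 TPM in XCastO129, and 47.1 and 45.2 TPM in X129OCast, with no overlap between XX and XO. Its log2 fold changes were -0.62 ± 0.14 and -0.79 ± 0.14 (edgeR adjusted p = 0.00209 and 0.000171). *Cbx7* encodes the chromodomain protein that brings canonical PRC1 to methylated H3K27 in mESCs. It had 113 and 123 TPM in *Rnf12*+/-, 154 and 156 TPM in XCastO129 and 158 and 169 TPM in X129OCast, again without overlap (0.51 ± 0.08 and 0.63 ± 0.08, edgeR adjusted p = 5.53e-05 and 3.65e-06). *Kdm2b* had 52.4 and 45.0 TPM in *Rnf12*+/-, 56.5 and 70.8 TPM in XCastO129 and 64.7 and 68.4 TPM in X129OCast, with 0.50 ± 0.15 and 0.60 ± 0.15 on the log2 scale (edgeR adjusted p = 0.0134 and 0.00289). In XCastO129 the *Kdm2b* call was lost in a fit of the 4 libraries of both conditions alone (adjusted p = 0.0967), without *Rnf12*+/- replicate 2 (0.39, adjusted p = 0.108) and without XCastO129 replicate 2 (0.33, adjusted p = 0.149). *Pcgf6*, which defines a variant PRC1 in stem cells, had 41.0 to 52.9 TPM in the 4 XO libraries, all below the 58.0 and 61.3 TPM of *Rnf12*+/-, but neither change passed the test (adjusted p = 0.131 and 0.246). *Ring1* was not called in either.

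**Figure D2:**
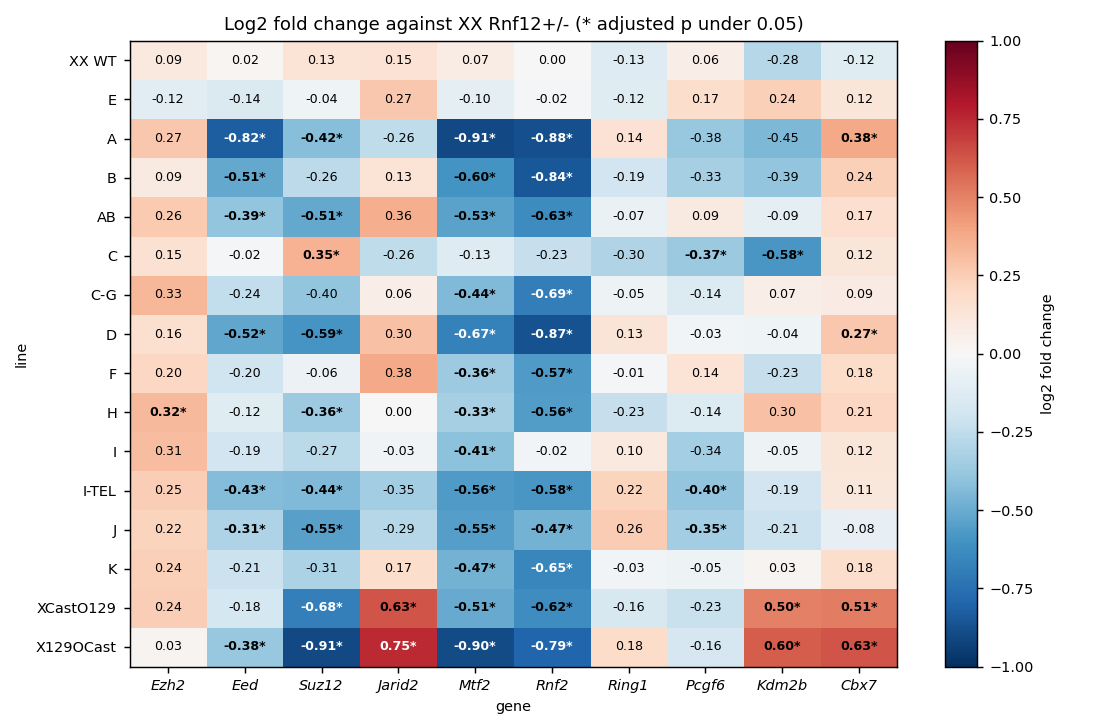
Log2 fold change against XX *Rnf12*+/- (colour and number) of each of the 10 genes (columns) in each other condition (rows), with an asterisk where the edgeR adjusted p was under 0.05. The XX wild type and deletion E rows, which share a library set with the reference, hold no asterisk, and *Mtf2* has 1 in 13 of the other 14 rows.

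The 12 deletion lines of the second library set were compared with XX *Rnf12*+/- in the same fit. Of 120 pairs of a gene and a line, 41 were called (34.2%), where 21.9% of all such pairs were called. Lower calls made up 37 of them, or 30.8% of the pairs against 11.1% for all genes, and higher calls 4, or 3.33% against 10.8%. *Mtf2* fell in 11 of 12 lines, *Rnf2* in 10, and *Eed* and *Suz12* in 6 each. *Pcgf6* fell in 3 lines (C, I-TEL and J) and *Kdm2b* in line C. The higher calls were *Suz12* in C, *Ezh2* in H and *Cbx7* in A and D, and *Jarid2* and *Ring1* were called in no line. The share of all genes called was 31.5% in A, 25.4% in B, 17.0% in AB, 39.0% in C, 14.3% in C-G, 33.0% in D, 18.0% in F, 15.8% in H, 13.6% in I, 23.5% in I-TEL, 18.4% in J and 13.6% in K. The genes around some members moved with them: the 17 other genes within 5 Mb of *Eed* had medians of -0.38 in A, -0.50 in B, -0.36 in AB and -0.33 in D, and the 155 around *Cbx7* 0.20 in A and 0.22 in D. Their part in these calls was not tested. Without XX *Rnf12*+/- replicate 1, which had the higher fibroblast marker sum of its pair, 22 of the 120 pairs were called, all lower. In fits of each line with the 2 *Rnf12*+/- libraries alone, 10 of the 80 pairs of the 8 lines with 2 clones were called (6.28% of the pairs of all genes), where the fit over 30 libraries called 27.

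The mean of the 12 lines was below XX *Rnf12*+/- for the same 4 genes. *Mtf2* had 114 to 200.5 TPM in the 20 libraries (median 158) against 209 and 219, so that all 20 lie below both *Rnf12*+/- values, as do 19 of 20 for *Rnf2* (47.1 to 106, median 61.0) and for *Eed* (118 to 223, median 177) and 17 of 20 for *Suz12* (169 to 386, median 226). The share of all expressed genes that separate in this way was not counted. The log2 fold changes of the mean were -0.50 ± 0.06 for *Mtf2*, -0.58 ± 0.10 for *Rnf2*, -0.33 ± 0.08 for *Eed* and -0.32 ± 0.08 for *Suz12* (SE, 20 and 2 libraries, edgeR adjusted p = 5.18e-06, 0.000328, 0.00321 and 0.00395). *Ezh2* and *Cbx7* were above the reference (0.23 ± 0.08 and 0.16 ± 0.06, edgeR adjusted p = 0.0312 and 0.0368), where 35.7% of all genes were called, 18.8% lower and 16.9% higher. Both calls were lost with a filter of at least 10 counts in 2 libraries (adjusted p = 0.0678 and 0.11). Without *Rnf12*+/- replicate 1, *Mtf2* and *Rnf2* were the 2 genes of the 10 still called. Because deletion E and the XX cells are in another library set, these values do not separate the deletions from the set. Whether deletion E differs from the 12 lines was not tested.

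Between the 12 deletion lines, which share 1 library set, 7 of the 10 genes differed (edgeR F test over the 20 libraries; 58.5% of all genes were called). They were *Suz12* (adjusted p = 0.000456), *Mtf2* (0.00146), *Eed* (0.0024), *Jarid2* (0.0058), *Kdm2b* (0.00796), *Rnf2* (0.00994) and *Pcgf6* (0.0105). *Ezh2* had 100.2 to 122 TPM over these libraries and did not pass (adjusted p = 0.288), nor did *Ring1* and *Cbx7* (0.338 and 0.0524). Set against the mean of the other 11 lines, 17 of 120 pairs were called, 8 higher and 9 lower, or 14.2% against 11.9% for all genes (6.38% higher and 5.55% lower).

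Deletion C accounted for 6 of these 17 calls, in a line in which 43.2% of all genes differed from the other lines. *Suz12* had 386 and 359 TPM in its 2 clones, the highest values in the series, against 169 to 286 TPM in the 18 other libraries of the set. This was 0.72 ± 0.08 above the mean of the other 11 lines on the log2 scale (edgeR adjusted p = 7.2e-06). *Mtf2* (197 and 200.5 TPM, 0.40 ± 0.06), *Rnf2* (73.2 and 80.7 TPM, 0.38 ± 0.11) and *Eed* (195 and 223 TPM, 0.34 ± 0.07) were higher as well (edgeR adjusted p = 0.000142, 0.0146 and 0.0014). *Kdm2b*, with 33.1 TPM in both clones, and *Jarid2*, with 193 and 172 TPM, were lower, by -0.47 ± 0.11 and -0.30 ± 0.11 (edgeR adjusted p = 0.00327 and 0.0377). Without both deletion C libraries, an alternative chosen after the data were seen, 5 of 10 genes differed among the 11 remaining lines (37.5% of all genes), and *Suz12* and *Kdm2b* were the 2 no longer called.

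Deletion A, a single clone, lay at the other end. *Eed* had 118 TPM and *Mtf2* 114 TPM there, the lowest of the 20 libraries for both. These were -0.54 ± 0.11 and -0.45 ± 0.09 from the mean of the other 11 lines (edgeR adjusted p = 0.0117 and 0.0129; 8.61% of all genes were called). With 1 library, deletion A has no spread of its own, and the fit assumes that it varies like the other lines. The other 9 calls were spread over 6 lines. *Kdm2b* was higher in deletion H (62.2 and 60.9 TPM, 0.49 ± 0.10), and *Jarid2* and *Pcgf6* were higher in deletion F (0.38 ± 0.10 and 0.35 ± 0.08). The clones of deletion F differed from each other for *Jarid2*, with 324 and 228 TPM. *Jarid2* was lower in I-TEL and J (-0.40 ± 0.11 and -0.33 ± 0.11), *Suz12* in D and J (-0.30 ± 0.08 and -0.25 ± 0.08) and *Cbx7* in J (-0.27 ± 0.06; 109.7 and 118 TPM). The shares of all genes called were 6.84% in H, 6.93% in F, 18.9% in I-TEL, 23.8% in J and 16.9% in D.

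**Figure D3:**
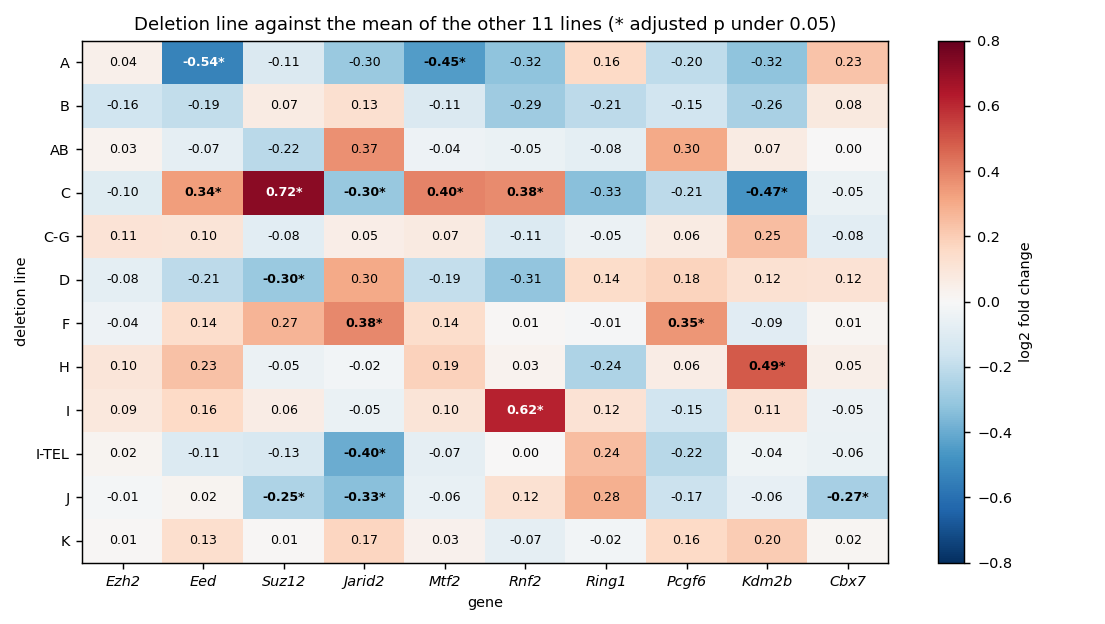
Log2 fold change of each of the 10 genes (columns) in each of 12 deletion lines (rows) over the mean of the other 11 lines of the same library set, with an asterisk where the edgeR adjusted p was under 0.05. Deletion C holds 6 of the 17 asterisks, with *Suz12* at 0.72.

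The highest *Rnf2* level of the series rested on 1 clone. Deletion I had 106 TPM of *Rnf2* in clone 1 and 70.7 TPM in clone 2, and was called 0.62 ± 0.11 above the mean of the other 11 lines (edgeR adjusted p = 0.00399; 11.2% of all genes were called). In clone 1 the 632 other expressed genes of chromosome 1 had a median level 0.50 above the median of the 20 libraries on the log2 scale, and 68.0% of their allelic reads were *Mus* reads. In the other 19 libraries these medians lay between -0.03 and 0.04, and the *Mus* share between 51.1 and 53.0%. Of the *Rnf2* reads of clone 1 that could be assigned to an allele, 55 of 59 were *Mus* (93.2%, 95% Wilson interval 83.8 to 97.3%), against 27 of 42 in clone 2 (64.3%, 49.2 to 77.0%) and 44.0 to 83.3% in the other libraries of the series. Without deletion I replicate 1 the estimate for *Rnf2* was 0.24 and the call was lost (adjusted p = 0.202), and against XX *Rnf12*+/- it was then -0.39 (adjusted p = 0.062).

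**Figure D4:**
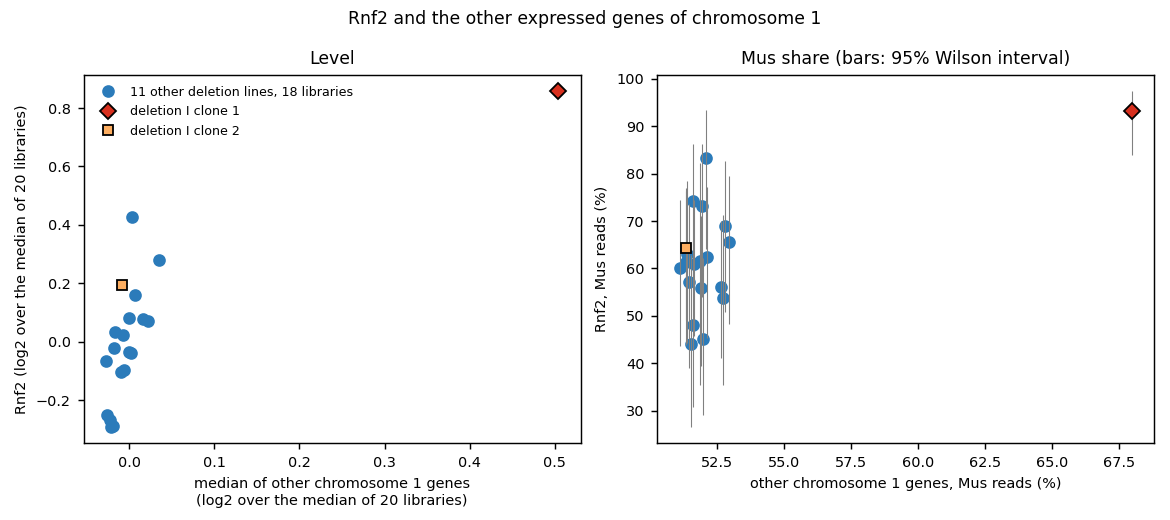
*Rnf2* (y axes) against the other expressed genes of chromosome 1 (x axes) in the 20 libraries of the 12 deletion lines, for the level (left, log2 over the median of the 20 libraries) and for the share of *Mus* reads (right, percent, with 95% Wilson intervals for counting error). Deletion I clone 1 stands apart on both x axes, at 0.50 and 68.0%.

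The share of *Mus* reads was the other readout of these genes. For the 8 of 10 genes with at least 20 allelic counts in every library, it was tested with edgeR against XX *Rnf12*+/-. In XCastO129 and in X129OCast no gene of the 8 was called (5.30% and 7.19% of the 6248 autosomal genes were). There, 0 and 2 of the 8 had an unadjusted p under 0.05, as did 1019 and 1056 of the 6248. Over all 17 allelic comparisons none of 136 values was called (1.84% for all genes). Of the 136, 17 had an unadjusted p under 0.05. Per comparison, 217 (deletion E) to 1056 (X129OCast) of the 6248 genes did. The estimates of *Jarid2* against XX *Rnf12*+/- were all negative, from -0.13 (log2, XX wild type) to -0.53 (deletion C-G). The medians of all genes ran from -0.08 (deletion F) to 0.01 (deletion E). *Kdm2b* had the lowest *Mus* share, with a median of 32.8% over the 30 libraries (18.5 to 46.2%, 51 to 435 allelic counts each). *Mtf2* had a median of 59.6% (46.7 to 67.6%), and *Cbx7*, with 1009 to 3531 allelic counts, the narrowest range (44.6 to 50.1%). *Rnf2* and *Ring1* had as few as 13 and 5 allelic counts in a library and were not tested.

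Some of the 10 genes varied together over the 20 libraries of the second set. *Eed* and *Mtf2* had a Pearson correlation of 0.91 in log2 CPM, *Jarid2* and *Pcgf6* of 0.88, and *Suz12* and *Mtf2* of 0.76. These were the 3 of 45 pairs above 0.7 (6.67%), where 1.20% of all pairs of expressed genes were above it. The median over the 45 pairs was 0.02, against -0.001 for all pairs of expressed genes. The lowest values were -0.62 (*Mtf2* and *Ring1*) and -0.61 (*Suz12* and *Ring1*). The libraries of 1 line share a clone history and all share a set, so these values describe the libraries. Among all expressed genes, the ones most like *Eed* were *Mtf2* and *Kpna1*, those most like *Suz12* were *Necap1* and *Arid4b*, those most like *Mtf2* were *Utp15* and *Kif5b*, and those most like *Jarid2* were *Odc1* and *Eif5a* (r from 0.90 to 0.92). *Rnf2* was most like *Nuf2* and *Rab3gap1* (0.93 and 0.92). Deletion I clone 1, with the higher chromosome 1 level given above, was among the 20 libraries, and its part in these values was not tested. *Pcgf6* was most like *Braf* and *Jarid2*, *Cbx7* like *Ypel3* and *Dock6*, *Kdm2b* like *Hmces* and *Foxp4*, *Ring1* like *Cep44* and *Haus4*, and *Ezh2* like *Skiv2l*, with r from 0.79 to 0.89.

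The other genes of both complexes, from a list of 9 for PRC2 and 32 for PRC1, moved in both directions. Of the 8 PRC2 genes tested, 2 were called in XCastO129 (1 higher), 3 in X129OCast (2 higher) and 5 in the mean of the 12 lines (3 higher), beside 41.4%, 53.5% and 35.7% of all genes. *Epop*, which links PRC2 to elongin, had 990 and 573 TPM in *Rnf12*+/-, 513 and 409 TPM in XCastO129, 324 and 403 TPM in X129OCast and 235 to 670 TPM in the 20 libraries (median 479). It fell in 8 of 12 lines and by -0.86 ± 0.17 in their mean (edgeR adjusted p = 0.000944). In the XX cells its 2 replicates differed about as much, and the replicates with more *Epop* were those with the higher fibroblast sum (347 and 426 against 131 and 135 TPM). In the second set, mean *Epop* was 541 TPM in deletion H (sums of 124 and 111 TPM), 454 TPM in D (303 and 299 TPM) and 635 TPM in J (332 and 241 TPM). The part of feeder RNA in *Epop* was not tested. *Phf19*, a second Polycomb-like gene beside *Mtf2*, was higher in 6 of 12 lines and in their mean (0.83 ± 0.20, edgeR adjusted p = 0.00428), and *Ezh1*, the alternative methyltransferase, in 6 lines and in the mean (0.67 ± 0.17, adjusted p = 0.00496). The mean of *Phf19* was 29.6 TPM in XX *Rnf12*+/-, 46.7 TPM in XX wild type and 39.6 TPM in deletion E. In the 20 libraries of the lines *Phf19* had 24.1 to 96.0 TPM (median 47.8). *Ezh1* was not called in the XO clones, where it had 11.8 to 15.0 TPM.

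Of the 29 PRC1 genes tested, 12 were called in XCastO129 (7 higher), 17 in X129OCast (10 higher) and 6 in the mean of the 12 lines (1 higher), beside the same shares of all genes. *Phc1*, a polyhomeotic subunit of canonical PRC1, had 309 to 448 TPM in the first set and 533 to 616 TPM in the XO clones, without overlap. It rose by 0.94 ± 0.11 in XCastO129 and 1.09 ± 0.11 in X129OCast (edgeR adjusted p = 3.77e-06 and 3.59e-07) and was the 1 higher gene in the mean of the lines (0.47 ± 0.09, adjusted p = 0.000546). *Bmi1*, a subunit of canonical PRC1 that is low in mESCs, had 4.88 to 7.5 TPM in the first set and 1.25 to 2.04 TPM in the XO clones. It fell by -1.62 ± 0.29 and -1.42 ± 0.29 there (edgeR adjusted p = 0.000271 and 0.000473) and in 9 of 12 lines. Its mean of 5.54 TPM in XX *Rnf12*+/- was just over the filter of 5 TPM, which rested on these cells alone. Such a choice favours lower calls against them. The part of feeder RNA in *Bmi1* was not tested. The fibroblast sum of the XO libraries, 124 to 271 TPM, overlaps that of the first set, 131 to 441 TPM. The X-linked PRC1 genes *Bcor* and *Bcorl1*, compared per X copy, were higher in X129OCast than in XCastO129 by 1.02 ± 0.22 and 1.46 ± 0.16 (edgeR adjusted p = 0.00829 and 4.19e-05). This sets the *Mus* allele of each against its *Cast* allele, and allele and XO genotype cannot be told apart here. Of 36 developmental genes that Polycomb is known to silence, 5 were expressed. Expression was judged in XX *Rnf12*+/- alone, which favours lower calls against those cells. Of the 5 genes, 3 were called in XCastO129 (1 higher), 3 in X129OCast (2 higher) and 2 in the mean of the lines (both lower). Of all genes, 41.4%, 53.5% and 35.7% were called there. In deletion J, 4 of the 5 were higher than in the other lines, as were 12.8% of all genes. In I-TEL, 2 of the 5 were higher, as were 11.2% of all genes. In A, C, C-G and D, 1 of the 5 was higher in each, as were 4.73%, 21.9%, 0.521% and 8.56% of all genes. Lower calls were 2 in C, 1 in C-G and 1 in K. The fibroblast sums were 332 and 241 TPM in J, 182 and 306 TPM in I-TEL, and 303 and 299 TPM in D. They were 226 TPM in A, 185 and 151 TPM in C, and 105 TPM in C-G. The part of feeder RNA in these values was not tested.

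**Figure D5:**
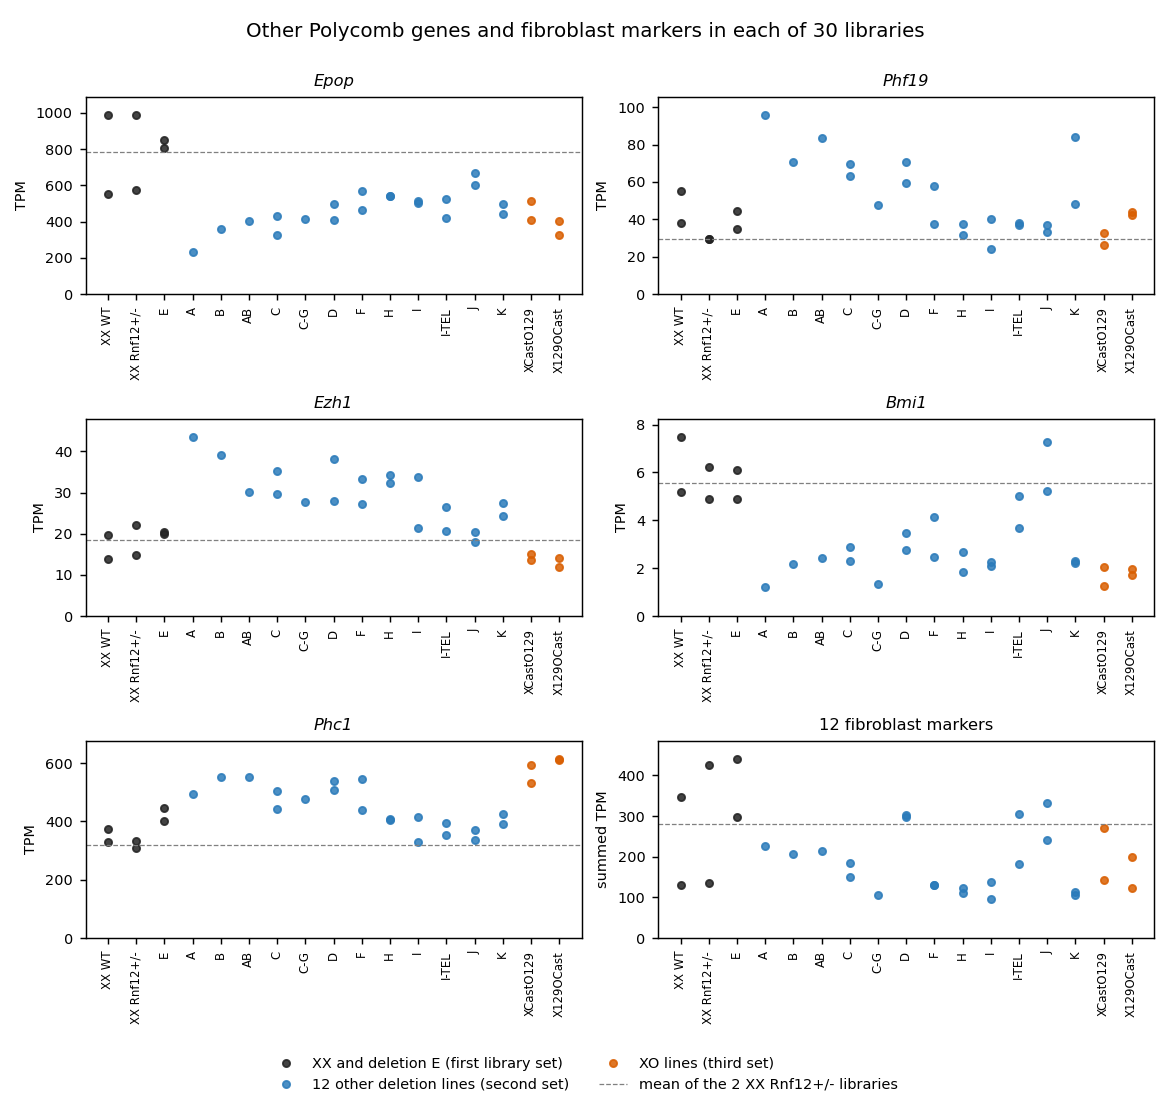
Level of *Epop*, *Phf19*, *Ezh1*, *Bmi1* and *Phc1* and the summed level of 12 fibroblast markers (y axes, TPM from 0) in each of the 30 libraries (points), by condition (x axes), with the mean of the 2 XX *Rnf12*+/- libraries as a dashed line. *Phc1* is highest in the XO clones (533 to 616 TPM), and the fibroblast sum differs between replicates of the XX cells (426 and 135 TPM in *Rnf12*+/-).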

How the data were processed

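RNA of 30 libraries was sequenced after stranded poly(A) library preparation. According to the methods, reads were trimmed (TrimGalore 0.6.7), aligned with HISAT2 2.2.1 to an mm10 genome in which strain SNPs were masked, split by allele (SNPsplit 0.3.4) and counted on exons of Ensembl release 98 with featureCounts 2.0.6, with strand. The submitters' processing notes name HTSeq 0.12.4 as well. The deposited table holds raw counts per gene, of all reads and of reads assigned to either allele, without normalization.

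Here, 55240 of 55421 identifiers were matched to GENCODE M21, and the 181 others held at most 0.00401% of a library's counts. TPM were counts divided by the union of exons and scaled to the library total. Groups came from the sample titles. Tests used the quasi-likelihood functions of edgeR 4.0.16 in R 4.3.3, fitted to the 30 libraries together with a coefficient for each of 17 conditions, TMM factors of autosomal genes and, for X-linked genes, the copy number in the offset, over 11703 genes with a mean above 5 TPM in XX *Rnf12*+/-. XX wild type was tested on 4 libraries and the 12 lines among themselves on 20. Adjusted p-values (Benjamini-Hochberg) under 0.05 were called. Nothing in the labels says that both libraries of every condition came from separate cultures, so p-values measure only the spread between these samples. Allelic shares were tested with 1 term per library and 1 per condition for the *Mus* reads. Wilson intervals cover counting error only.

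The 10 genes and the lists were chosen with earlier results of these data known. Named genes were the 10, up to 4 called genes per comparison with the largest change from the other lists, and the 2 genes most correlated with each of the 10, of which 1 is not reported here. *Ezh1*, *Epop*, *Phf19* and *Phc1* are also named where they were not among these 4, after their values were seen. Alternatives were DESeq2 1.42.0, other size factors and filters, other sets of libraries, a replicate block and leaving out libraries; those without both deletion C libraries were added after seeing the data. Scripts were tested on simulated counts. Figures were drawn with matplotlib 3.10.9.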

Additional observations from a re-analysis of the deposited data

Results flagged for a closer look

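The results below were marked because 2 groups differed in a direct test of that difference. Between the XO genotypes this was *Mtf2*, at -0.39 (log2, X129OCast over XCastO129). Against the mean of the other 11 lines of the set, deletion A differed for *Eed* (-0.54) and *Mtf2* (-0.45), on 1 library that is assumed to vary like the other lines. Deletion C differed for *Suz12* (0.72), *Mtf2* (0.40), *Rnf2* (0.38), *Eed* (0.34), *Kdm2b* (-0.47) and *Jarid2* (-0.30). *Suz12* differed in deletion D (-0.30), and *Jarid2* (0.38) and *Pcgf6* (0.35) in deletion F. *Kdm2b* differed in deletion H (0.49), *Rnf2* in deletion I (0.62), with the chromosome 1 values of clone 1 given above, and *Jarid2* in I-TEL (-0.40). Deletion J differed for *Jarid2* (-0.33), *Cbx7* (-0.27) and *Suz12* (-0.25). No condition had more than 2 libraries, so that no sample could be tested as an outlier within its group.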

How the results depend on the processing

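Of 1174 values recomputed for 85 called results on single genes, 1040 kept direction and call, 134 kept direction only and 0 reversed. Leaving out 1 library moved the count of called pairs of the 12 lines against *Rnf12*+/- from 41 to between 22 (without XX *Rnf12*+/- replicate 1) and 46, and that of lines against the other 11 from 17 to between 12 and 22. It moved the genes called in the mean of the 12 lines from 6 to between 2 (without the same replicate) and 6, in XCastO129 to between 6 and 7, between the XO genotypes to between 0 (without X129OCast replicate 1) and 1, and among the 12 lines to between 7 and 8. The counts stayed at 7 in X129OCast and at 0 for XX wild type, deletion E and allelic share. With only the libraries of the 2 conditions, 0 genes differed between the XO genotypes and 10 of 80 pairs were called for the lines. Without both deletion C libraries, 10 of 110 pairs of a line and a gene were called against the other 10 lines (7.45% of the pairs of all genes). By CPM, without length, 4 of the 10 genes kept their rank. Of 78 called values, 11 had neighbours within 5 Mb whose median moved the same way by over 0.2 (log2), and 17 within 2 Mb.

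The replicate numbers were not taken to pair the samples over the series: of 78 pairs of conditions, 22 had correlated deviations above 0.1 and 18 below -0.1. The highest value, 0.75, was that of XX wild type and XX *Rnf12*+/-, whose fibroblast sums also followed the number. With the number as a block, 1 gene, *Kdm2b*, was called for XX wild type (-0.29, edgeR adjusted p = 0.0293), as were 10.0% of all genes, and no other called value of the 10 genes was lost. With 2 libraries or 1 per line, small differences were not detectable, and *Ring1*, the lowest gene, had the largest standard errors.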

Other observations

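*Asxl2*, on chromosome 12, encodes a partner of the enzyme BAP1, which removes ubiquitin from H2A. It had 17.4 to 20.1 TPM in the 6 libraries of XX wild type, I-TEL and J and 22.4 to 39.8 TPM in the 24 libraries of the other 14 conditions, without overlap. The log2 fold changes against XX *Rnf12*+/- were -0.81 ± 0.09 in I-TEL and -0.87 ± 0.10 in J (edgeR adjusted p = 2.28e-05 and 1.74e-05), and -0.78 ± 0.11 in XX wild type, where the 4 libraries alone gave an adjusted p of 0.281. The *Mus* share of its reads was 48.4 to 59.4% in those 6 libraries and 61.5 to 72.0% in the others. The 24 expressed genes within 5 Mb had a median of -0.46 to -0.33 (log2, over the median of the 20 libraries of the second set) and 48.9 to 53.3% *Mus* reads in the 6 libraries, against -0.11 to 0.20 and 64.4 to 68.6% in the others. I-TEL and J were made from a second *Rnf12*+/- line. The grouping was chosen after the values were seen. None of the 10 Polycomb genes lies on chromosome 12.

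*Kdm6b*, which removes methyl groups from H3K27, was higher in X129OCast than in XCastO129 by 0.92 ± 0.12 (edgeR adjusted p = 0.000165). *E2f6*, a DNA-binding subunit of the PRC1 variant that holds PCGF6, fell in 4 of 12 deletion lines (C, H, I-TEL and J). It lies on chromosome 12 as well, and its 39 neighbours within 5 Mb had a median of -0.41 to -0.34 and 45.7 to 50.0% *Mus* reads in I-TEL and J, against -0.04 to 0.13 and 63.0 to 65.9% in the other deletion lines. In XX wild type these neighbours had -0.28 and -0.35 with 48.3 and 48.0% *Mus* reads, near I-TEL and J. In XX *Rnf12*+/- they had -0.04 and 0.01 with 64.3 and 64.2%. Of the 5 genes tested that remove either Polycomb mark, 2 were called in XCastO129 (1 higher), 2 in X129OCast (both higher) and 2 in the mean of the 12 lines (both lower). Of all genes, 41.4%, 53.5% and 35.7% were called in these comparisons.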
